A study of Rattus norvegicus with 3 samples.

Results

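The insulin-like growth factor (IGF) genes read here were the growth factors Igf1 and Igf2, the receptors Igf1r and Igf2r, and the binding proteins Igfbp2, Igfbp3, Igfbp4, Igfbp5 and Igfbp6. They were chosen by name, and a member was read from every probe set that the platform annotation assigned to its symbol alone. This gave 23 probe sets for 8 of the 9 genes, out of 8740 probe sets and 4736 genes in all. Igfbp4 had no probe set of its own and was not read. The study hybridised total RNA of 3 rat samples to 1 expression array each, and the arrays carry the time course labels 0.0 h, 0.1 h and 1.0 h. What these times are counted from is not stated there, so the labels are used as names of the arrays and no order in time is read from them. Every sample carries both pineal gland and adrenal medulla as its source, and treatment, strain, age and number of animals are not stated there. Tph1, Pdc and Asmt, which mark pinealocytes, were above the intensity floor described below on all 3 arrays, and so was Pnmt, which makes adrenaline in chromaffin cells of the adrenal medulla, with 611, 657 and 515. Of the other genes listed for chromaffin cells, Chgb, Ddc and Npy were above it on all 3. Phox2a and Slc18a1 were under it on all 3, as were Th and Dbh, enzymes of earlier steps of catecholamine synthesis. These values do not show how much of each tissue a sample held. With 1 array per label there was no replicate check and no test, and no difference below has a p-value or a standard error.

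IGF1 and IGF2 are small peptides related to insulin that drive growth and survival of many cell types. Both signal through the tyrosine kinase receptor encoded by Igf1r, while the receptor encoded by Igf2r, which also carries mannose 6-phosphate tagged enzymes to lysosomes, takes up IGF2 and sends it to be degraded. The IGF binding proteins hold the peptides in blood and tissue and can limit or prolong their access to the receptor. In the brain, Igf2 and Igfbp2 transcripts are typical of the meninges and the choroid plexus.

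Intensities were scaled between arrays, and a floor was set at a scaled intensity of 262.9, which is the 40th percentile over the whole table. Of the 23 probe sets, 11 exceeded the floor on all 3 arrays, 4 on some of them and 8 on none. Each of the 8 genes had at least 1 probe set among the 11. Over the whole array 4575 of 8740 probe sets, or 52.3%, exceeded it on all 3. So did the probe set with the greatest mean log2 value of 2915 genes other than Igf1r, out of 4736 genes in all. A gene with several probe sets has more chances to exceed the floor on 1 of them. Precision is limited by the number of arrays. Since different probe sets bind with different strength, an intensity is compared only with the same probe set on another array, never between genes. The 23 probe sets came from 19 sequence records, 4 of which gave 2 probe sets each, so they are not independent readings.

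None of the 11 probe sets was 2-fold apart between any pair of arrays. Of all probe sets measured on both arrays of a comparison, 10.5% were at least 2-fold apart between 0.1 h and 0.0 h, 5.47% between 1.0 h and 0.0 h and 9.38% between 1.0 h and 0.1 h. At these shares, about 1 of 11 probe sets or fewer would be counted in each comparison, so a count of 0 does not set the IGF genes apart. The largest differences were those of Igf1r, which was higher on the 0.1 h and 1.0 h arrays than on the 0.0 h array on each of its probe sets, of Igfbp2, which was lower on both, and of Igfbp6, which was highest at 1.0 h.

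**Figure D1:**
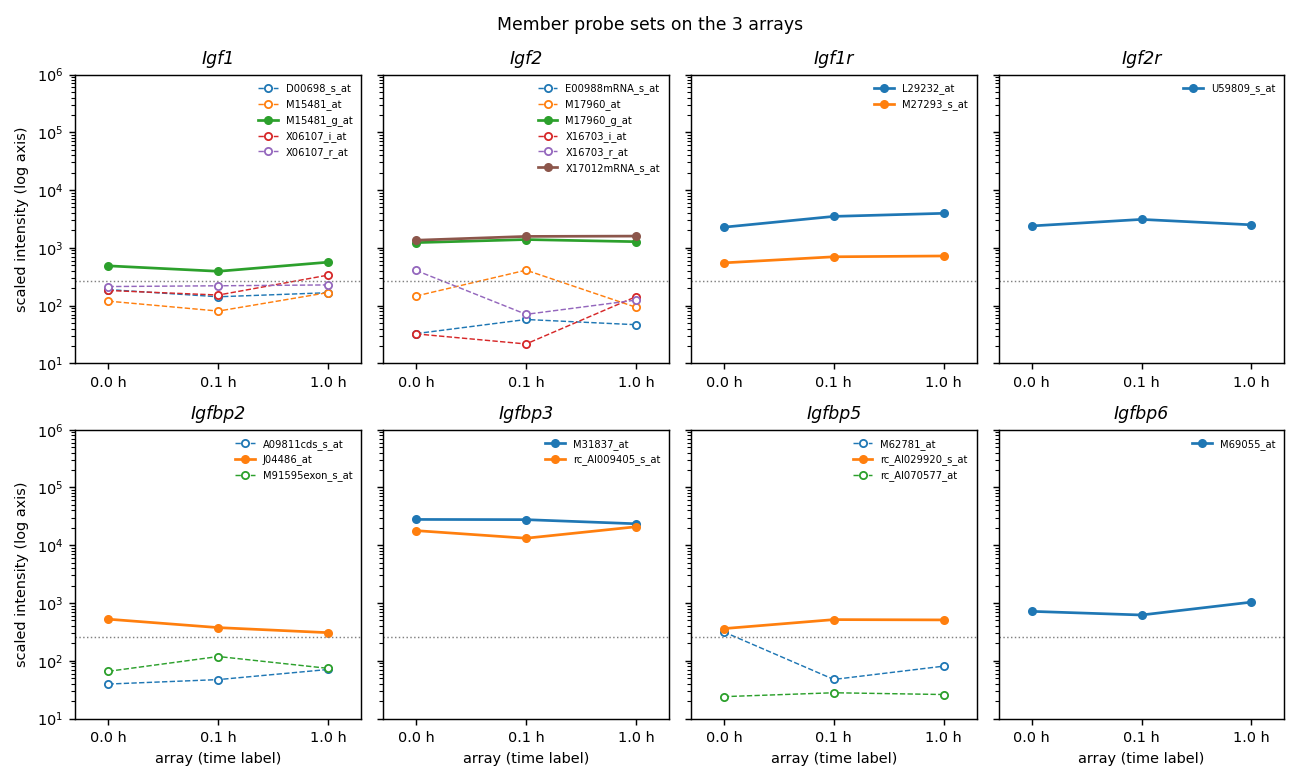
Scaled intensity on a log axis (vertical) of each member probe set on the 0.0 h, 0.1 h and 1.0 h arrays (horizontal), 1 panel per gene and 1 point per array, with no error bars since each label has 1 array. Filled points on solid lines are the 11 probe sets measured throughout, open points on dashed lines the other 12, and the dotted line is the floor of 262.9; both Igf1r lines are lowest at 0.0 h, and the solid Igfbp2 line is highest there.

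The windows around the annotated starts of Igf1r and Igfbp2 are shown because these genes had the widest differences in the upward and the downward direction. Each window runs from 250 bases before to 50 bases after the start and was taken from RefSeq on the rat assembly GRCr8. The Igf1r window lies at chr1:130959747-130960046 on the plus strand and the Igfbp2 window at chr9:81864561-81864860 on the plus strand, both written 5′ to 3′. Capitals mark the GC box, GGGCGG read on either strand, the letters known from binding of the factor SP1.
Igf1r: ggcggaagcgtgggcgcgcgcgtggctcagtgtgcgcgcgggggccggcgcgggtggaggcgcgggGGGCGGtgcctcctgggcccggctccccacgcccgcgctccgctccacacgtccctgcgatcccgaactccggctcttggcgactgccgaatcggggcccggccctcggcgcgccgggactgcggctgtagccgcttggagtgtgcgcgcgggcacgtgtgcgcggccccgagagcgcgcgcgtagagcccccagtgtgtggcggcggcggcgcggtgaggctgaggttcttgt
Igfbp2: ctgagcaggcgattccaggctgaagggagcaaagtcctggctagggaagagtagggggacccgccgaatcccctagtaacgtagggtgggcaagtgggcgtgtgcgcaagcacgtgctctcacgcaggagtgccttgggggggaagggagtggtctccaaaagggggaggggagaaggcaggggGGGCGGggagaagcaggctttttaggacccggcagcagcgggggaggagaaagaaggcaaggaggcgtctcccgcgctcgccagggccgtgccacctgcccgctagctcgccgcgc

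The Igf1r window was 78.0% G and C and held 50 CpG dinucleotides, and the Igfbp2 window was 66.7% G and C with 20. The medians over 33469 windows of the same length were 51.7% and 7. The GC box began 184 bases before the Igf1r start and 66 bases before the Igfbp2 start. It was present in 33.1% of all windows and in 5 of the 10 windows listed for the 9 IGF genes, those of Igf1r, Igf2r, Igfbp2 and both windows of Igf2. The TATA box, TATAAA on either strand, was in 14.2% of all windows and, among the IGF genes, in that of Igfbp4 alone. CCAAT was in 37.5% of all windows and in none of the 10, and TGACG, part of the cyclic AMP response element, in 21.2% and in 1 of the 10, that of Igf2r. These matches describe letters in a window, and the arrays do not measure binding there.

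Of the growth factors, Igf1, the main mediator of growth hormone action, was read from M15481_g_at. Its scaled intensities were 487 at 0.0 h, 393 at 0.1 h and 564 at 1.0 h, and values are given in that order from here on. The 0.1 h array was the lowest and the 1.0 h array the highest. The log2 difference was -0.31 between 0.1 h and 0.0 h, 0.21 between 1.0 h and 0.0 h and 0.52 between 1.0 h and 0.1 h. X06107_i_at, with 183, 152 and 337, exceeded the floor at 1.0 h alone and was at least 1.28-fold higher there than on the other arrays. M15481_at with 119, 80.3 and 168, D00698_s_at with 189, 142 and 167 and X06107_r_at with 214, 220.2 and 228 stayed below it. Values below the floor have no order.

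Igf2, an imprinted growth factor gene most active in the fetus, had a pair of probe sets measured throughout. M17960_g_at had 1231, 1391 and 1277, and X17012mRNA_s_at 1354, 1576 and 1596. Both were lowest at 0.0 h, and their log2 differences between 1.0 h and 0.1 h were -0.12 and 0.02. Their log2 differences from 0.0 h were 0.18 and 0.22 at 0.1 h and 0.05 and 0.24 at 1.0 h. Those at 0.1 h turned to -0.10 and -0.05 with the arrays scaled to the spike-in controls. These are control RNAs added in fixed amounts, at a step not stated, so scaling to them does not measure how much RNA a sample held. With that scaling both Igf2 probe sets were higher at 1.0 h than at 0.1 h, by 0.35 and 0.49. Of the other 4 Igf2 probe sets, M17960_at was above the floor at 0.1 h alone, with 147, 411 and 93.5, and X16703_r_at at 0.0 h alone, with 405, 70.6 and 124. They were at least 1.56-fold and 1.54-fold higher on those arrays than on the others, and the arrays differ. E00988mRNA_s_at and X16703_i_at never exceeded the floor and ranged from 21.7 to 143.

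Among the receptors, Igf1r was read from L29232_at with 2276, 3500 and 3956 and from M27293_s_at with 549, 700 and 723. Both probe sets ran in the order 0.0 h, 0.1 h, 1.0 h from low to high. The 0.1 h array was 1.54-fold higher than the 0.0 h array on the first and 1.27-fold higher on the second. The 1.0 h array was 1.74-fold and 1.32-fold higher than the 0.0 h array. Between 1.0 h and 0.1 h the log2 differences were 0.18 and 0.05, or 0.65 and 0.52 with the spike-in controls made equal. The order held under every scaling tried. With that scaling, the differences from 0.0 h were 0.35 and 0.08 at 0.1 h and 0.99 and 0.59 at 1.0 h.

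The spread of the log2 differences over all probe sets, an SD taken from the median absolute deviation, was 0.53 between 0.1 h and 0.0 h, 0.44 between 1.0 h and 0.0 h and 0.56 between 1.0 h and 0.1 h. At 0.1 h the Igf1r difference of 0.62 lay beyond that spread on L29232_at, and that of 0.35 on M27293_s_at did not. At 1.0 h the differences were 0.80 and 0.40, again with only the first beyond it. Probe sets of the same gene also disagreed with each other. Over 1112, 1089 and 1158 pairs of probe sets of the same gene, the median gap between their log2 differences was 0.40, 0.36 and 0.44 in the 3 comparisons. The gap between the Igf1r probe sets was 0.27, 0.40 and 0.13. In the array as a whole, 62.9%, 59.0% and 62.1% of such pairs had the same sign.

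Igf2r was read from 1 probe set, U59809_s_at, with 2392, 3105 and 2501. The 0.1 h array was 1.30-fold higher than 0.0 h, and the 0.0 h and 1.0 h arrays differed by 0.06 on the log2 scale. The difference of 0.38 at 0.1 h was smaller than the spread over all probe sets. The lower value at 1.0 h than at 0.1 h, a log2 difference of -0.31, became 0.16 with the spike-in controls made equal.

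Of the binding proteins, Igfbp3, the main carrier of IGF peptides in blood, was read from M31837_at with 27975, 27749 and 23545 and from rc_AI009405_s_at with 17909, 13238 and 20886. Its probe sets disagreed. The first was lowest at 1.0 h, and the second was lowest at 0.1 h and highest at 1.0 h. Between 1.0 h and 0.1 h their log2 differences were -0.24 and 0.66, a gap of 0.89, against a median gap of 0.44 over all such pairs and an upper quartile of 0.75. Between 1.0 h and 0.0 h they were -0.25 and 0.22. With the spike-in controls made equal, both were higher at 1.0 h than at 0.1 h, by 0.23 and 1.13. That scaling shifts each array as a whole and leaves the gap between the probe sets as it was. Under the other scalings tried, their signs in that comparison stayed opposite. Between 0.1 h and 0.0 h both were below 0, at -0.01 and -0.44.

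Igfbp2, a binding protein with a preference for IGF2, was read from J04486_at with 524, 375 and 306. The values ran from high to low in the order 0.0 h, 0.1 h, 1.0 h, and those at 0.1 h and 1.0 h lay close above the floor. The 0.1 h array was 1.40-fold lower and the 1.0 h array 1.71-fold lower than the 0.0 h array. The difference of -0.78 at 1.0 h lay beyond the spread over all probe sets, and that of -0.48 at 0.1 h did not. The difference between 1.0 h and 0.1 h, -0.29, became 0.18 with the spike-in controls made equal, while both differences from 0.0 h kept their sign under every scaling. The other Igfbp2 probe sets, A09811cds_s_at with 39.5, 47.2 and 70.7 and M91595exon_s_at with 65.8, 118 and 73.8, were below the floor.

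Igfbp5, which binds extracellular matrix and lies next to Igfbp2 among protein-coding genes in RefSeq, was read from rc_AI029920_s_at with 361, 516 and 509.9. The 0.0 h array was the lowest, and the 0.1 h and 1.0 h arrays were 1.43-fold and 1.41-fold higher. Between 1.0 h and 0.1 h the log2 difference was -0.02, or 0.45 with the spike-in controls made equal. The difference of 0.50 at 1.0 h lay beyond the spread and that of 0.52 at 0.1 h just inside it. M62781_at, with 315, 47.5 and 80.7, exceeded the floor at 0.0 h alone. It was at least 1.20-fold higher there and thus ran against the first probe set. rc_AI070577_at was below the floor with 23.9, 27.9 and 26.0. Against 0.0 h, the adjacent Igfbp2 and Igfbp5 thus lay on opposite sides of 0 on the probe sets measured throughout.

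Igfbp6, a binding protein with a strong preference for IGF2, was read from M69055_at with 717, 620.1 and 1036. The 1.0 h array was the highest, 1.44-fold above 0.0 h and 1.67-fold above 0.1 h. Both of these differences, 0.53 and 0.74, lay beyond the spread over all probe sets. The 0.1 h value was 1.16-fold lower than that at 0.0 h. The sign of each held under every scaling, and with the spike-in controls made equal the difference between 1.0 h and 0.1 h was 1.21.

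Over the 11 probe sets, 6 were higher and 5 lower at 0.1 h than at 0.0 h, where 51.2% of all were higher. The median log2 difference was 0.18 against 0.01 over all 4742 probe sets measured. Between 1.0 h and 0.0 h, 9 were higher and 2 lower, where 51.9% of all were higher. The median was 0.22 against 0.02 over 4775, and the 9 include both probe sets of Igf2 and both of Igf1r. Between 1.0 h and 0.1 h, 6 were higher and 5 lower, where 49.1% of all were higher. The median was 0.02 against -0.01 over 4832. These counts depend on the scaling. With the spike-in controls made equal, all 11 were higher at 1.0 h than at 0.1 h, as were 78.5% of all probe sets, and 4 were higher and 7 lower at 0.1 h than at 0.0 h, where 32.2% of all were higher. The counts of 9 and 2 between 1.0 h and 0.0 h held under every scaling tried. The share of all probe sets higher in that comparison ran from 51.2% to 69.3%. Differences beyond the spread were seen on 1, 4 and 2 of the 11 probe sets, where 34.8%, 33.0% and 33.0% of all probe sets lay beyond it. The comparisons with 0.0 h share that array, and 6 of the 11 probe sets were lowest there, as were 32.9% of all probe sets measured throughout. The highest value was at 1.0 h on 6 probe sets, at 0.1 h on 3 and at 0.0 h on 2, beside 32.8%, 37.2% and 30.1% of all probe sets. With the spike-in controls made equal, 9 were highest at 1.0 h, beside 60.3% of all, and 4 were lowest at 0.0 h, beside 26.6%.

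**Figure D2:**
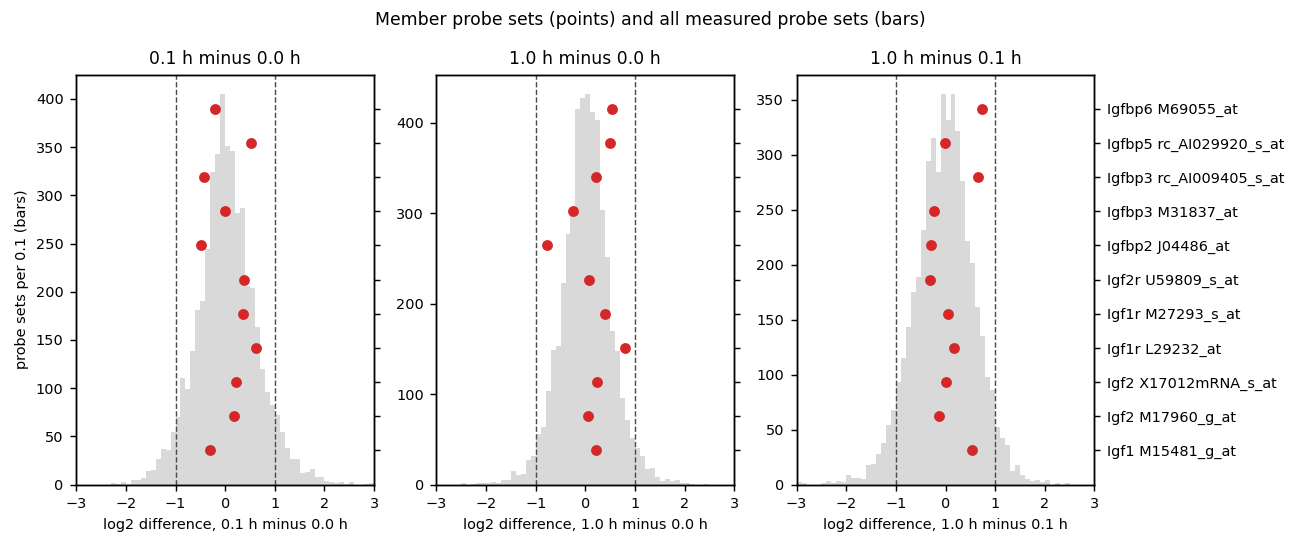
Log2 differences (horizontal) of the 11 IGF probe sets, 1 red point each in the row named at the right, over grey bars that count all measured probe sets in steps of 0.1 (vertical), 1 panel per comparison. Dashed lines mark 2-fold; every red point lies between them, from -0.48 to 0.62, from -0.78 to 0.80 and from -0.31 to 0.74.

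A second list held 54 genes of insulin and IGF signalling, hormone supply and peptide release, of which 36 had a probe set of their own. A gene with several probe sets was read from that with the greatest mean log2 value. Between 0.1 h and 0.0 h, 3 of 24 measured genes were higher by 2-fold or more and 1 was lower by as much, with 10.4% of all genes that far apart in either direction. At 1.0 h against 0.0 h, 1 of 26 was higher and none lower, beside 5.02% of all genes. At 1.0 h against 0.1 h, none of 25 was higher and 1 was lower, beside 9.14%. That none was higher rests on reading the brightest probe set. On another probe set, Sos1 and Grb2 were higher in that comparison by 1.95 and 1.16 on the log2 scale. The list medians were 0.17, 0.03 and -0.05, beside -0.0034, 0.013 and 0.0043 over all genes.

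Irs2, an adaptor that links the insulin and IGF1 receptors to phosphoinositide 3-kinase, was read from AF050159_at with 278, 563 and 719. The 0.0 h value was close above the floor, and the 0.1 h and 1.0 h arrays were 2.02-fold and 2.58-fold higher. At 0.1 h the log2 difference of 1.02 fell under 1 with the other scalings, between 0.74 and 0.98, while at 1.0 h it was 1.26 or more with each. Its other 3 probe sets never exceeded the floor. Stat5b, a transcription factor that growth hormone uses to raise Igf1, had 449, 980.2 and 845 on its single probe set. It was 2.18-fold higher at 0.1 h and 1.88-fold higher at 1.0 h than at 0.0 h, with a log2 difference at 0.1 h of 1.12, or 0.85 after scaling to the spike-in controls. Insrr, a receptor of the insulin receptor family, had 693, 1887 and 962.5 on D13966_at and was 2.72-fold higher at 0.1 h. On M90660exon_g_at it was lower at 0.1 h, with 743, 464 and 760.3, so its measured probe sets opposed each other.

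Sos1, a guanine nucleotide exchange factor that couples receptors to Ras, was the gene at least 2-fold lower at 0.1 h among those above the floor on both arrays, with 8427, 3359 and 6241 on rc_AA892860_at. The second probe set of that record, rc_AA892860_g_at, had 1697, 485 and 1872. Its log2 differences from 0.0 h were -1.81 at 0.1 h and 0.14 at 1.0 h, and that between 1.0 h and 0.1 h was 1.95. Both readings of Sos1 were lowest at 0.1 h. Ptpn1, a phosphatase that switches off insulin and IGF1 receptors, had 45998, 62646 and 27378 on M33962_g_at and was 2.29-fold lower at 1.0 h than at 0.1 h, a log2 difference of -1.19, or -0.73 after scaling to the spike-in controls. Of its 4 probe sets above the floor, rc_AI113289_s_at had the same sign in that comparison, with -0.68, while M33962_at and rc_AI112391_s_at had 0.34 and 0.37.

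Another 6 genes were picked after their values had been seen. Foxo1, a transcription factor held in check by Akt, had 817, 101 and 570.0. Its 0.1 h value was under the floor, at least 3.11-fold lower than at 0.0 h and at least 2.17-fold lower than at 1.0 h. Insr, the insulin receptor, had 464, 694 and 368. Akt1, a kinase downstream of both receptors, had 3531, 3957 and 4599 on its brightest probe set. Its other probe set, D30040_at, had 81.6, 428 and 162 and was above the floor at 0.1 h alone. Igfals, which forms the large IGF complex of blood with IGFBP3, had 743, 813 and 841 on its brightest probe set. Igfbp1, the neighbour of Igfbp3 in RefSeq and a binding protein of liver, was below the floor with 117, 71.7 and 78.8. H19, a noncoding RNA gene imprinted together with Igf2, had 147, 289 and 302 on its brightest probe set and was under the floor there at 0.0 h. Its other probe set never exceeded the floor. Read from the brightest probe set, none of Insr, Akt1 and Igfals was 2-fold apart between any pair of arrays. This follows from the choice, since the listed genes that far apart with both arrays above the floor were named before.

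**Figure D3:**
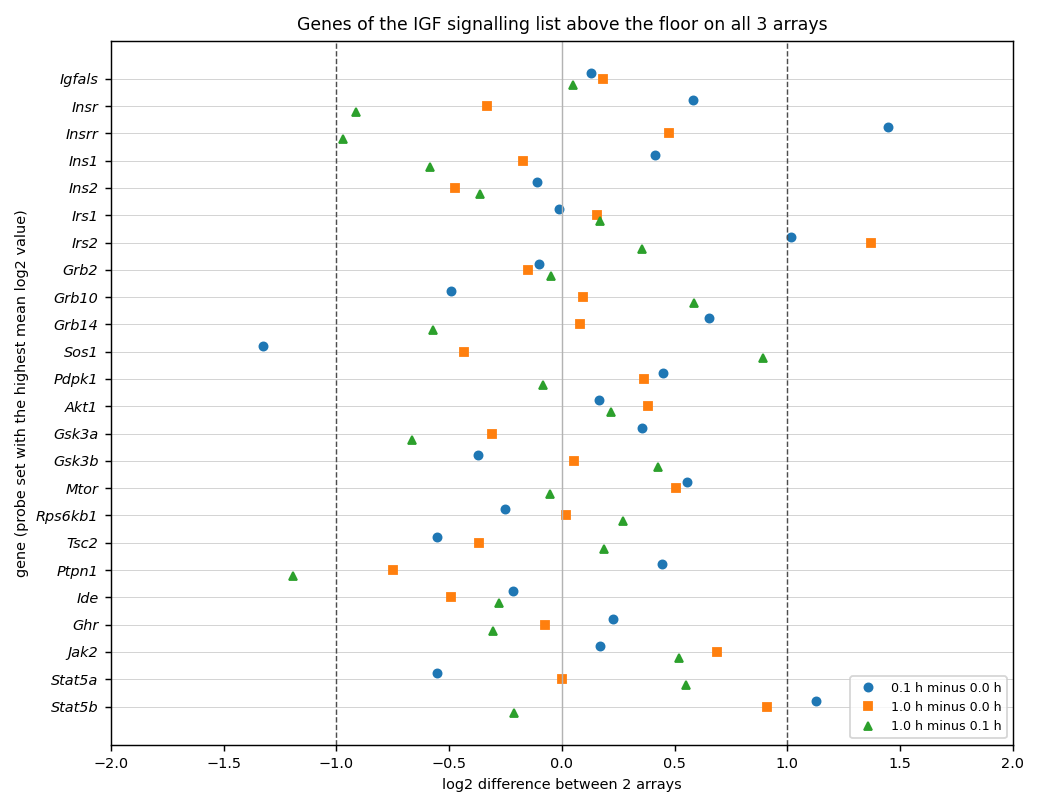
Log2 differences between pairs of arrays (horizontal) for the 24 genes of the signalling list above the floor on all 3 arrays (vertical), with a circle, a square and a triangle for the 3 comparisons named in the legend. Dashed lines mark 2-fold; circles of Insrr, Irs2 and Stat5b lie to the right of them and that of Sos1 to the left, the square of Irs2 to the right and the triangle of Ptpn1 to the left.

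L29232_at of Igf1r had the widest range of the 11 probe sets, and genes were ranked by how closely their log2 values, centred over the 3 arrays, followed it. The nearest of 2915 other genes were Megf6, Bpnt1 and Tpm3, at Euclidean distances of 0.019, 0.019 and 0.020. Tpm3, a tropomyosin gene, had 4721, 7157 and 8057, and Bpnt1, a nucleotidase gene, 2720.3, 4237 and 4815. Of the 2915 genes, 21 lay within a distance of 0.1. A match over only 3 arrays carries little weight, and how often other probe sets find one was not tested.

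The IGF values stand beside the following facts of the arrays. Signal at the 3′ end of the beta-actin control exceeded that at its 5′ end by 10.4-fold, 17.8-fold and 44.4-fold, and for GAPDH by 15.3-fold, 18.6-fold and 14.1-fold. Each list sum below adds different probe sets, also values under the floor, so its brightest genes carry it. At 0.0 h Chgb gave 64520 of the chromaffin cell sum, Glul 65089 of the astrocyte sum and Ttr 41432 of the choroid plexus sum. The pinealocyte list had 5 of 6 genes above the floor on all arrays and summed to 50625, 57283 and 43956. In it Pdc had 19481, 23079 and 9173, Asmt 5746, 13849 and 9178, and Tph1 22073, 16963 and 22643. These did not run in the same order. Compared with 0.0 h, 3 of 5 measured genes were higher at 0.1 h and 2 of 5 at 1.0 h. The chromaffin cell list had 4 of 8, among them Chgb, Ddc and Pnmt, and summed to 85838, 82646 and 63333, but Phox2a and Slc18a1, like Th and Dbh, were below the floor throughout. The adrenal cortex list had 1 of 5, Scarb1, and summed to 5669, 3934 and 6519, with Star, Cyp11a1 and Cyp11b2 below the floor throughout. The fibroblast and meninges list, which includes Col1a2, Vim and Fn1, had 10 of 12 genes above the floor on all arrays and summed to 74509, 63080 and 79966. The sum was lowest at 0.1 h, where Col1a2 had 12176 against 25564 at 0.0 h and Fn1 6744 against 11019, but 6 of its 10 genes measured on both arrays were higher at 0.1 h than at 0.0 h and 4 lower, with a median of 0.03, so the list did not move one way. Igf1, Igfbp6 and the second probe set of Igfbp3 were also lowest at 0.1 h, as were the adrenal cortex and endothelial sums. The leukocyte list, with Cd14 and Lyz2, had 4 of 7 above the floor on all arrays and summed to 4963, 7408 and 6285. Its sum was lowest at 0.0 h, as were the astrocyte sum and 6 of the 11 IGF probe sets, both of Igf1r among them. Against 0.0 h, 3 of 4 measured leukocyte genes were higher at 0.1 h and 4 of 4 at 1.0 h. Itgam and Csf1r were below the floor throughout. The endothelial list had 2 of 4 and summed to 3187, 2182 and 3020.1, and the astrocyte list 5 of 6 with 73669, 78402 and 76322. Of 5 measured astrocyte genes, 2 were higher and 3 lower at 0.1 h than at 0.0 h, with a median of -0.04. The choroid plexus list had 1 of 4 above the floor on all arrays, Ttr, with Kcnj13 and Aqp1 below it throughout, and its sums were 41985, 40715 and 39819.7. The hepatocyte list had 2 of 7, again with Ttr, and its sums were 42079.9, 41542 and 41397. The part of cell make-up and of RNA quality in the IGF values was not tested, and in tissue fewer cells of a type and less RNA per cell cannot be told apart.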

How the data were processed

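Each of the 3 rat RNA samples was hybridised to an Affymetrix array of its own. The deposited values are linear intensities, 1 per probe set; how the authors summarised probes and corrected background is not given in the sources used here, and the arrays' means without the highest and lowest 2% of values were nearly equal in the deposited table. Of 8799 probe sets, 59 controls were left out; 7006 of the others had a single symbol in the platform annotation, and 6985 of these matched RefSeq (GRCr8) by gene ID. Intensities were taken to log2, scaled to the array median and shifted so that medians above the 40th percentile were equal. Differences were read only where both arrays were above that floor, and 2-fold was counted. That the floor was applied to the shifted values, not before the shift, was settled after the values had been seen. Groups came from the time labels, and no test was possible. Differences were checked on data with known answers. The named genes were all members, signalling genes at least 2-fold apart, the brightest cell type markers and the 3 genes nearest in pattern to the widest-ranging member; not every marker so given is printed. Other signalling genes, the marker Npy and the markers below the floor were named outside that rule, after their values had been seen. Alternatives were other scalings (quantile and cyclic loess from limma 3.58.1 in R 4.3.3, 9 spike-in probe sets made equal, values as deposited), floors at the 20th and 60th percentile, and averaged probe sets. The members and lists were chosen with earlier results of these data known.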

Additional observations from a re-analysis of the deposited data

How the results depend on the processing

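The counts of IGF probe sets at least 2-fold apart were 0 in all 3 comparisons and stayed 0 with the values as deposited, with quantile and cyclic loess normalisation and under a 60th percentile floor, where 6 probe sets were measured. With the floor at the 20th percentile they were 1 of 15 between 0.1 h and 0.0 h (Igf2 M17960_at, 1.43), 1 of 17 between 1.0 h and 0.0 h (Igf2 X16703_r_at, -1.77) and 2 of 15 between 1.0 h and 0.1 h (Igf1 X06107_i_at, 1.14, and Igf2 M17960_at, -2.15), all on probe sets that the higher floor left out. Of all probe sets measured under that floor, 1018 of 6409, 722 of 6432 and 968 of 6487 were that far apart. After matching the 9 spike-in probe sets, which moves the median of all probe sets by -0.27, 0.20 and 0.47 in the 3 comparisons, the count between 1.0 h and 0.1 h was 2 (Igfbp6, 1.21, and Igfbp3 rc_AI009405_s_at, 1.13). With that scaling 858 of all 4832 measured probe sets were that far apart, so the count of 2 of 11 does not set the IGF genes apart. Applying the floor before the shift, an alternative chosen after seeing the data, left the counts and medians of the 11 IGF probe sets and the counts of the signalling list as given in all 3 comparisons, while the probe sets measured between 0.1 h and 0.0 h went from 4742 to 4769. The median IGF difference between 0.1 h and 0.0 h was 0.18, and -0.10 after matching the spike-in probe sets or -0.01 with the low floor. It lay between 0.14 and 0.42 for 1.0 h against 0.0 h and between -0.04 and 0.49 for 1.0 h against 0.1 h. The signs of single probe sets held under quantile and cyclic loess normalisation; as deposited, Igfbp5 turned from -0.02 to 0.07 between 1.0 h and 0.1 h. After matching the spike-in probe sets, 2 of 11 signs changed between 0.1 h and 0.0 h (both of Igf2) and 5 of 11 between 1.0 h and 0.1 h, those of Igf2 M17960_g_at (-0.12 to 0.35), Igf2r (-0.31 to 0.16), Igfbp2 (-0.29 to 0.18), Igfbp3 M31837_at (-0.24 to 0.23) and Igfbp5 (-0.02 to 0.45). For the signalling list the counts of 4, 1 and 1 became 2, 2 and 3 after matching the spike-in probe sets, and 1 and 0 in the comparisons with 0.0 h with the floor at the 60th percentile. They became 0 between 1.0 h and 0.0 h with probe sets averaged and 2 between 1.0 h and 0.1 h with the floor at the 20th percentile. A lower floor admits dimmer signals and a higher one fewer genes; the cause of the other moves was not tested.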
